A study of Ogataea parapolymorpha with 16 samples.

Results

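The genes described here were those whose transcripts fell to their lowest level in late-stage retentostat cultures of both strains of the methylotrophic yeast Ogataea parapolymorpha used in the study. A retentostat is a continuous culture with a filter in the outlet that keeps the cells in the vessel while fresh medium still enters, so that the glucose available to each cell shrinks until growth nearly stops. A gene was taken when, in CBS11895 and in IMD010 alike, its retentostat level lay at least 1 below the lowest of the other 3 culture types on the scale of log2(group mean + 1), a difference called the margin below. Of 5408 genes listed, 5232 reached a group mean of at least 10 scaled FPKM (the deposited FPKM, scaled between libraries by the median of ratios), and 79 of these met the rule. FPKM stands for read fragments per kilobase of gene and per unit of library depth. The divisor of the deposited values followed annotated gene length only weakly (Spearman -0.38), so scaled FPKM compare cultures within a gene and not genes with each other. A set of 2 genes was left out by the rule, and 1 of them would have passed. All 79 members were protein-coding genes.

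Transcripts were measured in 16 cultures, 2 independent bioreactor cultures in each of 8 groups. CBS11895 is the wild-type strain, also called DL-1. IMD010 was made from it by inserting a single nucleotide in NUBM, the gene of the NADH-binding subunit of respiratory complex I, which shifts its reading frame, and is 1 clone. Each strain was grown aerobically on glucose in synthetic medium in batch (growth rate of 0.37 per h), in glucose-limited chemostats at 0.1 and 0.025 per h, and in a retentostat that ended near 0.001 per h. The retentostats were continued from chemostats at 0.025 per h run on retentostat medium, whereas the sequenced chemostats are labelled with the standard medium. The retentostat feed held more trace elements and vitamins than that of the sequenced chemostats and its pH was kept with ammonium hydroxide in place of potassium hydroxide, so growth rate, retention time and medium cannot be told apart in any retentostat value. Scaled levels are shares of the polyadenylated RNA of whole cultures: fewer cells that express a gene and less of its RNA in each cell cannot be told apart.

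The libraries held 16522183 to 20898682 reads in genes. NUBM transcript levels lay between 1432 and 3874 scaled FPKM in all 16 samples, and a frameshift is not read out by this measure. Across the genes tested, libraries stood apart in 2 places that touch the results below. The pair of IMD010 chemostat cultures at 0.1 per h differed by a standard deviation of 0.89 on the log2 scale over all genes tested, against 0.13 to 0.28 in the other 7 groups, and 23 members differed by more than 1 between them, with a median of 0.62 higher in culture 1. In the CBS11895 batch cultures, the 767 genes tested with up to 600 bp had a median of 1.18 below their own mean over groups on the log2 scale (-1.18), against 0.15 for the 4465 longer genes, and 8 members had up to 600 bp. Over the members alone, the CBS11895 chemostat 0.025 pair differed by a standard deviation of 0.46 and the IMD010 retentostat pair by 0.36. Over all genes tested these were 0.28 and 0.21.

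Yeast cells that stop dividing no longer pass through the stages at which histones, the spindle, the septum and new cell wall are made, and in budding yeasts many of the genes for these tasks are transcribed in bursts once per cycle. Mitotic exit is run by a kinase cascade in which DBF2 acts last, the bud neck is then closed by a ring and a septum, and genes restricted to daughter cells are switched on as the cells part. Permeases for scarce nitrogen sources answer instead to which nitrogen compounds the medium offers. These roles are background from Saccharomyces cerevisiae and Schizosaccharomyces pombe and were not measured here.

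The margin ran from 1.00 to 3.53 in CBS11895, with a median of 1.41 (2.65-fold), and from 1.05 to 4.39 in IMD010, with a median of 1.92 (3.80-fold). It was at least 2 in both strains for 12 members and at least 3 for 3 members, and it was larger in IMD010 than in CBS11895 for 71 of 79. For all genes tested the median margin was -0.49 in CBS11895 and -0.41 in IMD010 (below 0, some other culture was lower than retentostat). The share of all genes with a larger margin in IMD010 was not counted. Over the members the margins in the 2 strains had a Pearson r of 0.75 and a Spearman rho of 0.61, a description over genes that share the same libraries. These values chose the members and so carry no test. Taken alone, CBS11895 met the threshold for 1.68% of genes tested, IMD010 for 3.92%, and both for 1.53%. In both strains the 2 retentostat cultures lay under all 6 other cultures for 79 of 79 members and for 11.2% of genes tested. By the smaller of the 2 margins, the 3 members nearest the threshold were HPODL_01922 (1.02), HPODL_04733 (1.02) and HPODL_04549 (1.00), and the 3 genes just outside it were HPODL_01154, a high-affinity copper transporter (0.996), HPODL_01343, the glucanosyltransferase GAS5 (0.990), and HPODL_01659, the mannosyltransferase KTR1 (0.985).

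**Figure D1:**
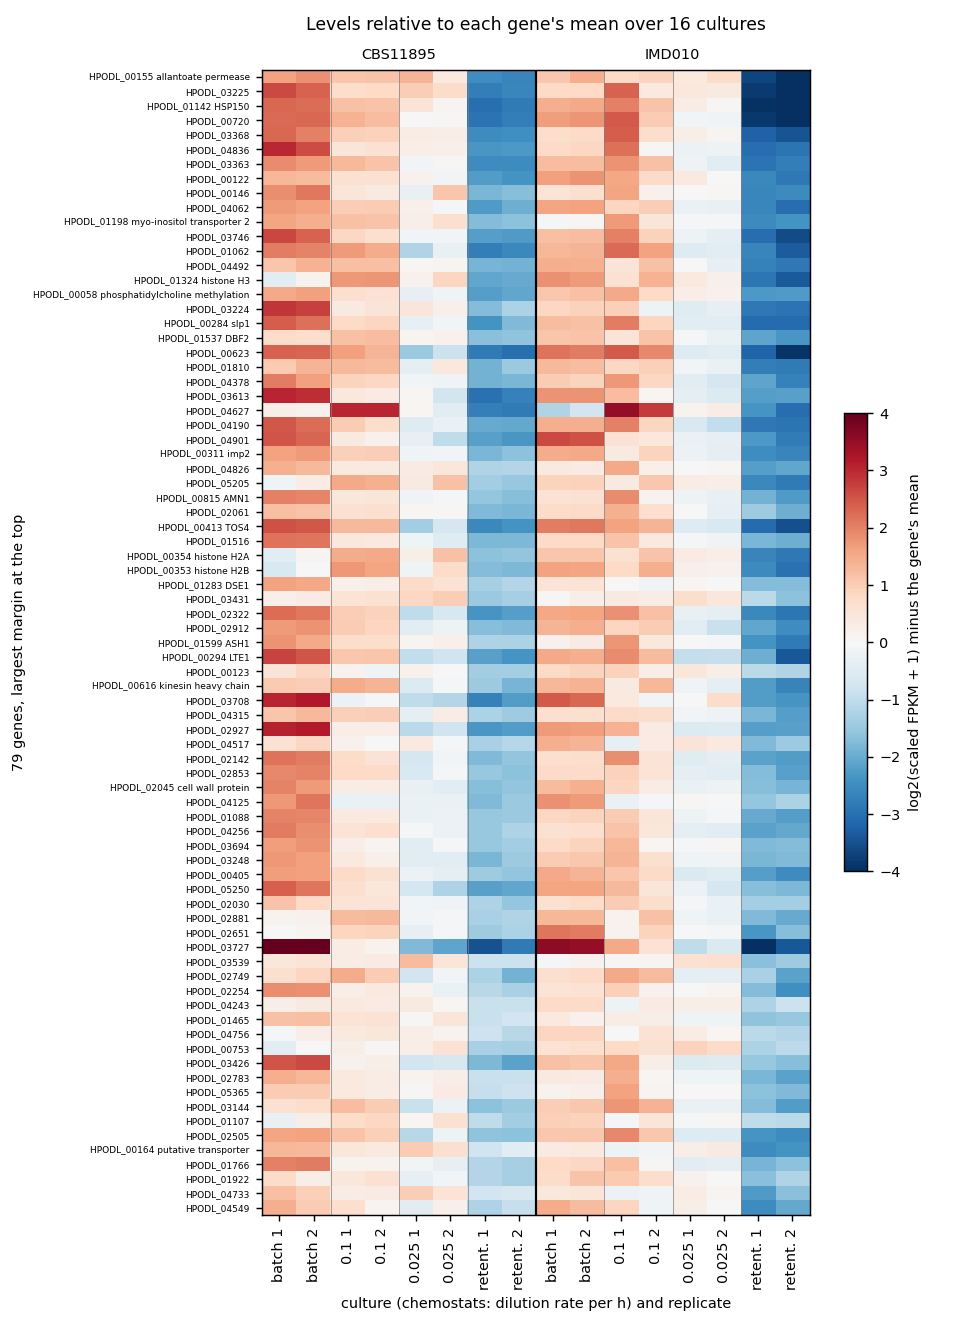
Heat map of the 79 members (rows, largest margin at the top) in the 16 cultures (columns, grouped by strain and culture, with the dilution rate per h for chemostats and "retent." for retentostat). Colour gives log2(scaled FPKM + 1) minus the mean of the gene over all 16 cultures, and in every row the 2 retentostat columns of a strain are the lowest of that strain by the rule, with IMD010 chemostat 0.1 culture 1 above its partner in many rows.

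The members did not all arrive at the retentostat level by the same path. The lowest of the other 3 cultures was the chemostat at 0.025 per h for 62 members in CBS11895 and 68 in IMD010. In CBS11895, 52 members declined at each step from batch through both chemostats to retentostat, a stepwise order found in 12.6% of all genes tested. In IMD010 it was 37 members beside 10.6% of genes, and in both strains 24 members beside 5.64%. The last step is set by the rule, so these counts are larger than a count free of it would be. A smaller set, which overlaps the stepwise one, was flat until the last step. These 13 of 79 members varied by less than 1 on the log2 scale over the other 3 cultures in both strains. Flatness was less common among the members than among all genes tested, of which 29.7% met it. Among the 13 were HPODL_00155 and HPODL_01465, both also stepwise in both strains. HPODL_00123 and HPODL_01922 were also stepwise in IMD010, and HPODL_00164 and HPODL_04243 were stepwise in neither strain. A spread under 1 and a margin of at least 1 make the fall larger than the spread by definition.

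The largest margin belonged to HPODL_00155 (chromosome III, 561 to 2081), annotated as an allantoate permease, a carrier that in Saccharomyces cerevisiae takes up a nitrogen source used when better ones are lacking. It lies 560 bp from the start of the chromosome sequence. Scaled FPKM in CBS11895 were 64.3 and 74.8 in batch, 44.8 and 45.8 in chemostat 0.1, 53.9 and 27.1 in chemostat 0.025, and 2.79 and 2.39 in retentostat. In IMD010 they were 44.3 and 57.0, 35.8 and 37.9, 26.7 and 34.2, and 0.662 and 0.331 in the same order. The retentostat values stood well under all others in both strains, and in IMD010 they rest on 2 reads and 1 read, so the ratio to chemostat 0.025 was 60.9 with a 95% counting interval of 20.6 to 298 (exact Clopper-Pearson, counting error only). HPODL_01198 (chromosome VI, 181679 to 183310), myo-inositol transporter 2, which imports the precursor of inositol lipids, had a margin of 2.16 in CBS11895 and 2.40 in IMD010. Its scaled FPKM were 1197 and 1086 in batch, 899 and 879 in chemostat 0.1, 473 and 632 in chemostat 0.025, and 120.1 and 126 in retentostat of CBS11895. In IMD010 they were 387 and 416 in batch, 1297 and 563 in chemostat 0.1, 384 and 374 in chemostat 0.025, and 67.5 and 74.9 in retentostat. The IMD010 batch cultures were thus as low as its chemostat 0.025 cultures, which no CBS11895 batch culture was. A putative transporter, HPODL_00164, was flat before retentostat and had 198 and 249 scaled FPKM in the CBS11895 and 58.6 and 65.0 in the IMD010 retentostats, against 448 to 857 and 295 to 451 in the other cultures. These 3 were all the members among 93 transporters and permeases tested (3.23%), beside 35 members among the 2110 genes tested that carry a product name (1.66%).

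A group of secreted and cell wall proteins followed. HPODL_01142 (chromosome VI, 90573 to 91499) is annotated as the cell wall mannoprotein HSP150, a heat-inducible, heavily mannosylated protein of the outer wall in Saccharomyces cerevisiae. In CBS11895 its scaled FPKM were 1213 and 1154 in batch, 554 and 538 in chemostat 0.1, 346 and 262 in chemostat 0.025, and 29.1 and 33.8 in retentostat. In IMD010 they were 675 and 699, 997 and 534, 300.4 and 249.5, and 14.7 and 12.99. The retentostat level was 9.41-fold under the lowest other culture in CBS11895 and 18.6-fold in IMD010, on the log2(value + 1) scale. HPODL_02045, annotated only as a cell wall protein, went from 253 to 1329.7 scaled FPKM in the other CBS11895 cultures to 103 and 113, and from 279 to 905 in IMD010 to 102 and 93.7. With HSP150 it made 2 members of 46 tested on the cell wall and glycosylation list (4.35%). HPODL_01283, annotated as DSE1, a protein made by daughter cells and linked to cell wall metabolism in Saccharomyces cerevisiae, was at 7594 and 7304 in batch, 2874 and 2982 in chemostat 0.1, 4303 and 3710.4 in chemostat 0.025, and 999 and 1111 in retentostat of CBS11895. In IMD010 the same cultures gave 3649 and 3674, 2523 and 2252, 2669 and 2467, and 744 and 760.1. It did not fall between the 2 chemostat rates, and the IMD010 batch level was below that of CBS11895.

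A further 6 members carry the product name putative secreted protein, out of 31 genes tested with that name. Over all 2110 genes tested with a product name, 35 were members (1.66%). The largest fall among them was in HPODL_00720, from 146 to 729 scaled FPKM in the other CBS11895 cultures to 18.1 and 21.1 in retentostat, and from 134 to 809 to 9.34 and 6.52 in IMD010. HPODL_00146 was at 28006 and 32903 in batch and 2169 and 2361 in retentostat of CBS11895, and its 2 chemostat 0.025 cultures lay far apart at 6214 and 16600.5. HPODL_01062 and HPODL_00623 were already much lower in the slower chemostat than in the faster one. HPODL_00623 was at 94.0 and 77.8 in chemostat 0.1, 9.93 and 15.7 in chemostat 0.025, and 3.26 and 2.80 in retentostat of CBS11895, with 166 and 116, 20.5 and 21.1, and 2.33 and 0.997 in IMD010. HPODL_00122 and HPODL_00123 are neighbours on chromosome I, separated by 539 bp. HPODL_00122 was at 22.2 to 62.6 in the other CBS11895 cultures and at 4.36 and 3.82 in retentostat, while HPODL_00123 had a margin of 1.37 and 1.48 in the 2 strains and was flat before retentostat. The only other adjacent members were HPODL_03224 with HPODL_03225, on chromosome VII with 707 bp between them, and a pair of histone genes.

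Several members carried product names from the cell cycle and division. HPODL_01537 (chromosome VI, 740227 to 742038) is annotated as the cell cycle protein kinase DBF2. In CBS11895 its scaled FPKM were 422 and 415 in batch, 568 and 590.7 in chemostat 0.1, 271 and 286 in chemostat 0.025, and 78.3 and 82.3 in retentostat. In IMD010 they were 542 and 559, 364 and 564, 245 and 211, and 58.2 and 49.2. The level did not differ much between batch and the faster chemostat and went down through the slower chemostat to retentostat. HPODL_00815 (chromosome III, 1147362 to 1148897), AMN1, the antagonist of the same mitotic exit network, was at 1211 and 1153 in batch, 405 and 415 in chemostat 0.1, 271 and 280.0 in chemostat 0.025, and 102 and 90.4 in retentostat of CBS11895. In IMD010 it was at 443 and 452, 1112 and 330.1, 257 and 241, and 78.9 and 60.9, with chemostat 0.1 culture 1 far above the other. HPODL_00294, annotated as LTE1, a guanine nucleotide exchange factor that promotes mitotic exit in Saccharomyces cerevisiae, had lost most of its transcript by 0.025 per h, at 239.7 and 209 in batch, 76.3 and 77.5, then 17.7 and 20.1, and 7.10 and 6.22 in CBS11895. Its IMD010 retentostat cultures were at 8.47 and 2.53 and lay on both sides of the CBS11895 ones.

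HPODL_00284 (chromosome III, 220521 to 222008) is named after slp1 of Schizosaccharomyces pombe, an activator of the complex that marks mitotic proteins for destruction. Its scaled FPKM were 219 and 187 in batch, 70.6 and 74.8 in chemostat 0.1, 31.9 and 37.5 in chemostat 0.025, and 6.93 and 11.3 in retentostat of CBS11895, and 95.7 and 93.1, 171 and 73.7, 29.6 and 29.7, and 3.88 in both retentostat cultures of IMD010. HPODL_00311, named after the septation protein imp2, which shapes the contractile ring in Schizosaccharomyces pombe, went in CBS11895 from 506 and 537 in batch through 324 and 326, then 146 and 152, to 46.4 and 52.7, and in IMD010 from 465 and 471 through 214 and 307, then 139.5 and 128, to 29.0 and 25.8. Its cultures of a group lay close together in every group but IMD010 chemostat 0.1. HPODL_00616, a kinesin heavy chain, a motor that moves along microtubules, was at 40.9 to 168 in the other CBS11895 cultures and at 21.2 and 15.9 in retentostat, and at 46.1 to 158 and then 11.98 and 8.56 in IMD010. HPODL_00413 and HPODL_01599 are annotated as the transcription factors TOS4 and ASH1. TOS4 belongs to the genes switched on at the start of the cycle in Saccharomyces cerevisiae, and ASH1 is the repressor made in its daughter cells. TOS4 went from 1463 and 1407 in batch through 624 and 623, then 94.9 and 159, to 41.6 and 47.2 in CBS11895, and from 1044 and 1078 through 774 and 646, then 175 and 163, to 29.0 and 21.3 in IMD010. ASH1 went from 1465 and 1214 through 696 and 690.1, then 452 and 488, to 179 and 175 in CBS11895, and from 476 and 536 through 1439 and 572, then 425 and 413, to 80.6 and 58.8 in IMD010.

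By words in product names, 3 members (DBF2, AMN1 and kinesin) lay among 32 tested genes of cell cycle and mitosis (9.38%) and 3 (DBF2, TOS4 and ASH1) among 51 of transcription factors and signalling (5.88%). The median margin of the cell cycle list was -0.28 in CBS11895 and -0.07 in IMD010, against -0.49 and -0.41 for all genes tested, where a value below 0 means that some other culture was lower than retentostat. The margin was above 0 in both strains for 13 of the 32 cell cycle genes and for 889 of 5232 genes tested. Because it uses the lowest of the other 3 cultures, a median below 0 does not show whether a list fell. LTE1, imp2, DSE1 and slp1 are not caught by those words and were named after their values were seen, except slp1, which is among the 20 largest margins.

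**Figure D2:**
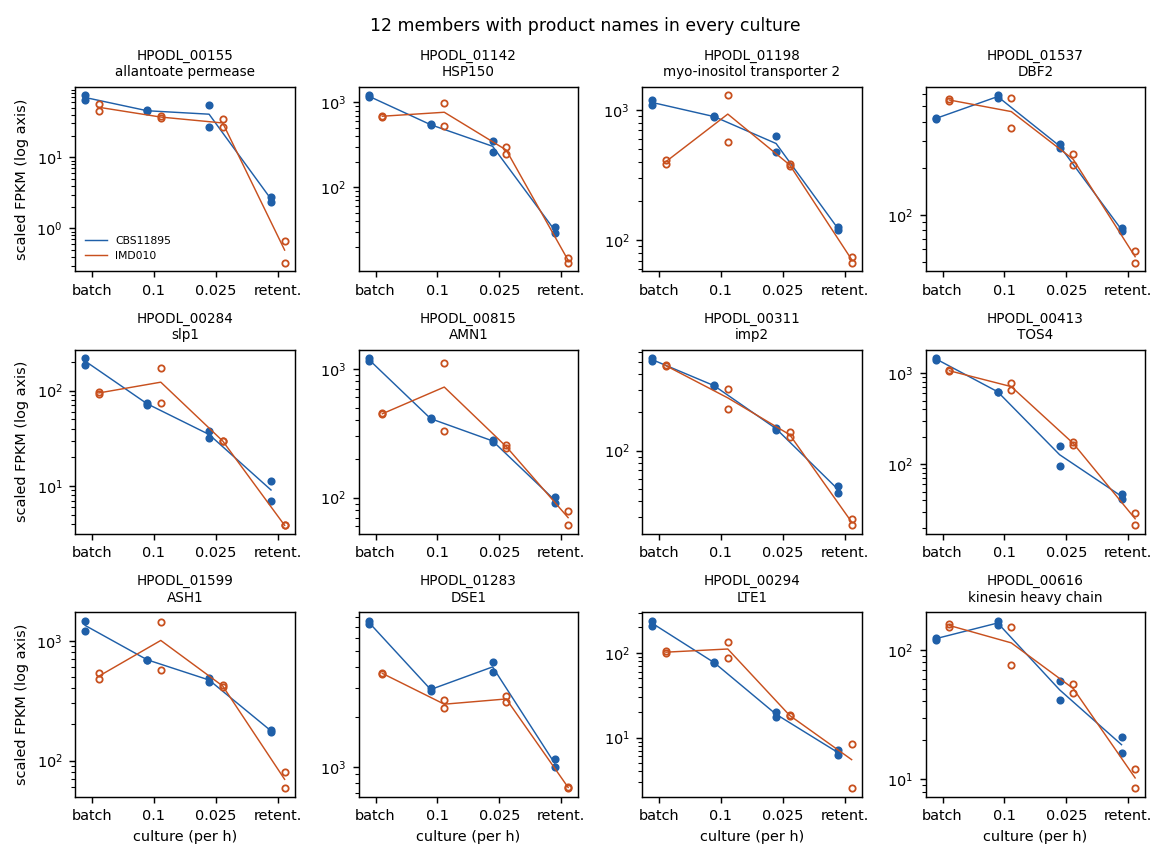
Scaled FPKM on log axes in each culture for 12 members with product names (points, single cultures; lines, group means; filled blue, CBS11895; open orange, IMD010; "retent.", retentostat; chemostats by dilution rate per h). All retentostat points lie under the other points of their strain, from a fall to 0.662 and 0.331 for the allantoate permease in IMD010 to 999 and 1111 for DSE1 in CBS11895.

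Of 8 histone genes with product names, 3 were members. HPODL_00354 (histone H2A) and HPODL_00353 (histone H2B) lie side by side on chromosome III with 270 bp between them, and HPODL_01324 (histone H3) lies on chromosome VI (395984 to 396394). H2A was at 5036 and 5118 scaled FPKM in chemostat 0.1, 2087 and 4034 in chemostat 0.025, and 577 and 596 in retentostat of CBS11895, and at 2730.3 and 3984, 2271 and 2158, and 289 and 247 in IMD010. H2B was at 2207 and 1989.8, then 585 and 1093, then 196 and 188 in CBS11895, and at 1154 and 1820.5, then 752 and 750.1, then 112 and 82.5 in IMD010. H3 was at 2133 and 2153, then 723 and 1158, then 150.1 and 158 in CBS11895, and at 969.7 and 1684, then 835 and 733, then 85.4 and 60.5 in IMD010. All 3 were lowest in retentostat in both strains without overlap, with margins of 1.48 to 1.91 in CBS11895 and 2.93 to 3.41 in IMD010. The CBS11895 margins were set by batch, at 1347 and 1942 for H2A, 428 and 646 for H2B, and 465 and 702 for H3. In IMD010 batch the same genes were at 3858 and 3824, 2012 and 1983, and 2251 and 2064.

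The other histone genes did not behave alike. HPODL_01325 (histone H4), the neighbour of HPODL_01324, had 577 and 597 in retentostat of CBS11895 against 4289 and 6658 in chemostat 0.025, and 241 and 215 in IMD010 against 3685 and 2982. It stayed outside the members because its CBS11895 batch values were only 312 and 512. Further copies were also lower in retentostat than in chemostat 0.025, but by less, and retentostat was not their lowest culture in either strain. HPODL_00515 (histone H2B) was at 2528 and 3736 in chemostat 0.025 and 2011 and 2162 in retentostat of CBS11895, and at 2659 and 2596 and then 1565 and 1812 in IMD010. HPODL_01891 (histone H3) was at 2993 and 3326 and then 2075 and 2076 in CBS11895, and at 2459.7 and 2389 and then 1774 and 1657 in IMD010. HPODL_01892 (histone H4) was at 4439 and 4935 and then 2004 and 1877 in CBS11895, and at 3948 and 3186 and then 1952 and 2226 in IMD010. Each of these 3 had its lowest CBS11895 culture in batch (62.6 to 455 scaled FPKM). HPODL_01931 (histone H3) was at 113 and 133 in chemostat 0.025 and 82.1 and 69.9 in retentostat of CBS11895, and at 113 and 107 and then 66.9 and 75.2 in IMD010, where retentostat was its lowest culture. All 8 histone genes have 312 to 504 bp and so belong, in the CBS11895 batch cultures, to the lengths that were low as a class. The copies of 1 histone may share sequence, the study removed reads that fit more than 1 place, and how much of each level that removed was not tested. The DNA replication and histone list held these 3 members among 34 genes tested (8.82%), and none of its replication genes was a member.

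**Figure D3:**
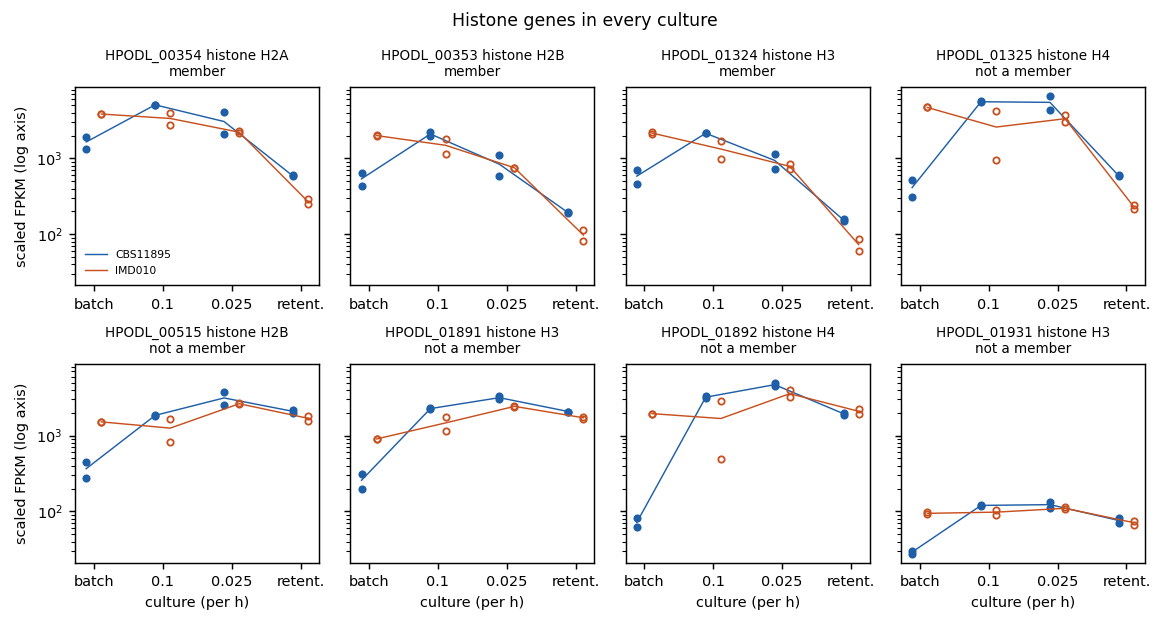
Scaled FPKM on a shared log axis in each culture for the 8 histone genes with product names (filled blue, CBS11895; open orange, IMD010; points, single cultures; lines, group means). H2A HPODL_00354, H2B HPODL_00353, H3 HPODL_01324 and H4 HPODL_01325 lie between 60.5 and 597 in retentostat, while HPODL_00515, HPODL_01891 and HPODL_01892 lie between 1565 and 2226 there, below their chemostat 0.025 values of 2389 to 4935.

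A few members were annotated as enzymes. HPODL_00058 (chromosome I, 125552 to 126181), annotated with the later methylation steps of phosphatidylcholine synthesis, was at 7532 and 8105 in batch, 4049.8 and 3930.3 in chemostat 0.1, 2062 and 2298 in chemostat 0.025, and 572 and 613.1 in retentostat of CBS11895. In IMD010 it was at 5558 and 5872, 7478 and 4492, 3123 and 2912, and 529 and 545, so that the 2 strains ended at nearly the same level. HPODL_01088, acetyl-CoA acetyltransferase, whose product feeds sterol synthesis, ended at 694 and 707 in CBS11895 and 490.1 and 426 in IMD010, from 1642 to 7735 and from 1718 to 3944. HPODL_01516, an aromatic and aminoadipate aminotransferase, ended at 352 and 353 and at 351 and 316, from 882 to 5621 and from 1111 to 2743. HPODL_01766, a steryl ester hydrolase of the plasma membrane, ended at 75.5 and 67.0 and at 46.9 and 54.8, from 135 to 728 and from 127 to 392. HPODL_01922, a tRNA isopentenyl transferase, ended at 29.2 and 26.2 and at 20.2 and 28.7. The CBS11895 margins of these last 4 ran from 1.02 to 1.49.

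The remaining lists held few or no members. Nitrogen source use held 1 of 31 (the allantoate permease), sugar and central carbon metabolism 1 of 46 (acetyl-CoA acetyltransferase), stress proteins and chaperones 1 of 24 (HSP150) and hypothetical proteins 7 of 660. No member was found among 41 cytosolic ribosomal proteins, 48 genes of ribosome biogenesis, 25 of amino acid and nucleotide synthesis, 16 of metal, potassium, ammonium and phosphate uptake, 12 of vitamin uptake and synthesis and 16 of peroxisome and methanol use. For the cytosolic ribosomal proteins the median margin was -1.69 in CBS11895 and -0.83 in IMD010, and the margin was above 0 in both strains for 1 of them. Product names were at hand for 35 members. The other 44 are known here by locus tag only, and they include 8 of the 20 largest margins. HPODL_03225 was the largest of these, at 187 and 208 scaled FPKM in retentostat of CBS11895 and 88.4 and 71.6 of IMD010, with 2072 to 7858 and 1636 to 6549.6 in the other cultures.

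Between genes, levels can be compared only per length, and for that the reads behind each value were divided by annotated gene length. On that scale the median member stood at percentile 74.0 of genes tested in CBS11895 batch, 56.1 in chemostat 0.1, 36.9 in chemostat 0.025 and 10.3 in retentostat. In IMD010 the percentiles were 65.4, 62.5, 36.4 and 7.34. These percentiles describe the median member and not each one. The rule placed the other cultures above retentostat, so the fall in percentile is in part set by it. Their median length of 1230 bp was near that of all genes tested (1209 bp), and 10.1% had up to 600 bp beside 14.7% of genes tested. They were spread over all 7 chromosomes, with 7 to 14 on each, and 3 lay within 20 kb of the outermost listed gene of a chromosome.

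Members already moved between the 2 chemostat rates, a comparison the rule did not use, although its samples entered the rule on the high side. From 0.1 to 0.025 per h, 28 of 79 members fell in CBS11895 (35.4%) and none rose, where 9.02% of genes tested were called, 4.19% lower and 4.84% higher (limma, adjusted p under 0.05 and at least 1 on the log2 scale). In IMD010 39 members fell (49.4%) and none rose, where 18.4% of genes were called, 7.34% lower and 11% higher. The median change of the members was -0.77 in CBS11895 and -0.99 in IMD010, beside 0.01 and 0.04 over all genes tested. Without a scaling factor 40 and 45 members fell and none rose, and the split over all genes tested went from 253 higher and 219 lower to 139 and 439 in CBS11895 and from 578 and 384 to 415 and 463 in IMD010. A fit on the 4 IMD010 chemostat samples alone called no member and none of all genes tested (0 higher and 0 lower). It therefore cannot tell the members from other genes. Of the members that fell, 22 did so in both strains, 78.6% of those in CBS11895 and 56.4% of those in IMD010. The same overlap was not counted over all genes tested, so it is not shown to be particular to the members. HPODL_04627 fell most, by 3.25 ± 0.28 (SE, n = 2) in CBS11895 (limma, adjusted p = 3.8e-05) and by 2.94 ± 0.28 in IMD010 (adjusted p = 5.8e-05). It was also the odd one in batch, with 471 and 453 scaled FPKM there against 3323 and 3329.8 in chemostat 0.1 of CBS11895. The putative secreted protein HPODL_00623 fell by 2.68 ± 0.26 in both strains (adjusted p = 6.1e-05 and 7.3e-05).

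Among the division members, TOS4 fell by 2.33 ± 0.21 in CBS11895 (limma, adjusted p = 4.7e-05) and by 2.06 ± 0.21 in IMD010 (adjusted p = 0.00010). LTE1 fell by 1.97 ± 0.35 and 2.51 ± 0.35 (adjusted p = 0.0019 and 0.00048), kinesin by 1.71 ± 0.28 and 1.08 ± 0.28 (adjusted p = 0.0013 and 0.011) and slp1 by 1.05 ± 0.31 and 1.89 ± 0.31 (adjusted p = 0.027 and 0.0012). The calls of AMN1 and ASH1 were made in IMD010 alone, with log2 changes of -0.57 and -0.56 in CBS11895 that did not pass (limma, adjusted p = 0.29 and 0.21). DSE1 and the allantoate permease were not called in either strain (log2 changes of 0.45 and 0.11, and of -0.24 and -0.28). H2B and H3 fell in CBS11895 by 1.39 ± 0.30 and 1.23 ± 0.29 (adjusted p = 0.0054 and 0.0096), with -0.95 and -0.71 in IMD010 that did not pass. Over the whole lists, 5 of 32 cell cycle genes fell in each strain (none and 2 rose) and 9 and 6 of 34 replication and histone genes fell (1 and 3 rose), beside 96 and 164 of 2110 genes with product names (112 and 281 rose).

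**Figure D4:**
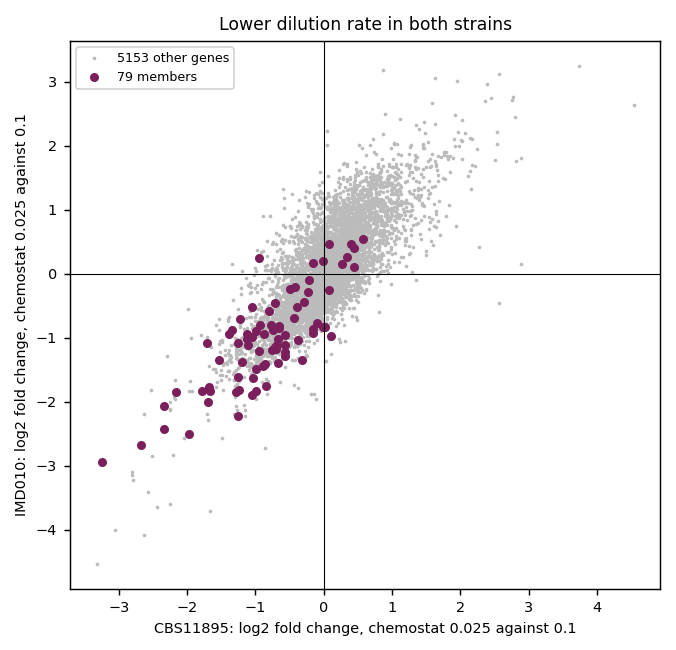
Log2 fold change from chemostat 0.1 to 0.025 per h in CBS11895 (horizontal axis) and IMD010 (vertical axis) for the 79 members (purple) and the other 5153 genes tested (grey). The members' medians are -0.77 and -0.99, while all genes tested centre near 0 (0.01 and 0.04).

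Whether the 2 strains differed in this step was tested as an interaction. No member was called and none of all genes was (0%, limma), with 6 members (5 of them lower in IMD010) and 5.81% of genes at an unadjusted p under 0.05 and a smallest adjusted p of 0.54. The median interaction over the members was -0.14, beside 0.01 over all genes tested. Without culture 2 of the IMD010 chemostat 0.1 group it was -0.40, beside -0.03 over all genes tested. Members and many other genes were called in that fit, which leaves 1 culture in the group. Without culture 1 the median was 0.04, beside 0.0001.

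In retentostat itself the strains differed for some members. The comparison was not used by the rule, but the retentostat levels of both strains were, and no p tests the choice. IMD010 was lower for 9 of 79 members (11.4%) and higher for none, where 1.59% of all genes tested were called, 0.937% lower and 0.65% higher (limma, adjusted p under 0.05 and at least 1 on the log2 scale). At an unadjusted p under 0.05, 42 members were lower and none higher, where 15.3% of genes passed in either direction. The median over the members was -0.63 beside 0.00 over all genes (-0.0034). Both IMD010 retentostat cultures lay under both CBS11895 ones for 57 members and above them for 6, where 34.6% and 34.7% of genes tested did so. The 9 were the putative transporter HPODL_00164, by -1.83 ± 0.15 (SE, n = 2, limma, adjusted p = 4.9e-05), HPODL_03224 by -1.41 ± 0.30 (adjusted p = 0.023), ASH1 by -1.35 ± 0.32 (adjusted p = 0.039), the allantoate permease by -1.27 ± 0.27 (adjusted p = 0.025), HPODL_04733 (2.39-fold lower), HPODL_05205 (2.37-fold lower), H2A by -1.13 ± 0.28 (adjusted p = 0.047), HSP150 by -1.13 ± 0.24 (adjusted p = 0.025) and HPODL_01810 by -1.12 ± 0.23. H3 (-1.09 ± 0.29, adjusted p = 0.073) and H2B (-0.99 ± 0.30, adjusted p = 0.11) lay near them and did not pass. The calls depended on the libraries used. Fewer members, and fewer of all genes tested, were called when any retentostat culture was left out, which leaves 1 in its group. More of both were called without either IMD010 chemostat 0.1 culture, which enters only the shared estimate of spread. The median over the members was -0.61 and -0.57 without CBS11895 retentostat culture 1 or 2. It was -0.69 and -0.51 without IMD010 retentostat culture 1 or 2. Over all genes tested the same medians were -0.007, -0.001, -0.007 and 0.006.

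Few members were called between the strains at the chemostat rates. At 0.025 per h 1 member was called, HPODL_03708, higher in IMD010 by 1.48 ± 0.24 (limma, adjusted p = 0.012), where 0.726% of genes tested were called, 0.497% higher and 0.229% lower. That call was lost without CBS11895 chemostat 0.025 culture 1 or 2 or IMD010 chemostat 0.025 culture 2, each of which left 0 members called, and without either IMD010 chemostat 0.1 culture there were 2. At 0.1 per h no member was called, where 1.24% of genes were (0.975% higher, 0.268% lower). An unadjusted limma p under 0.05 was found for 21 members (12 higher and 9 lower in IMD010) and for 40.7% of genes, and without IMD010 chemostat 0.1 culture 2 the calls came to 24 members, with 551 of all genes higher and 1050 lower. The medians over the members were -0.13 at 0.025 per h and 0.29 at 0.1 per h, with -0.02 and 0.02 over all genes, and the value at 0.1 per h was -0.05 without IMD010 chemostat 0.1 culture 1 and 0.56 without culture 2.

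**Figure D5:**
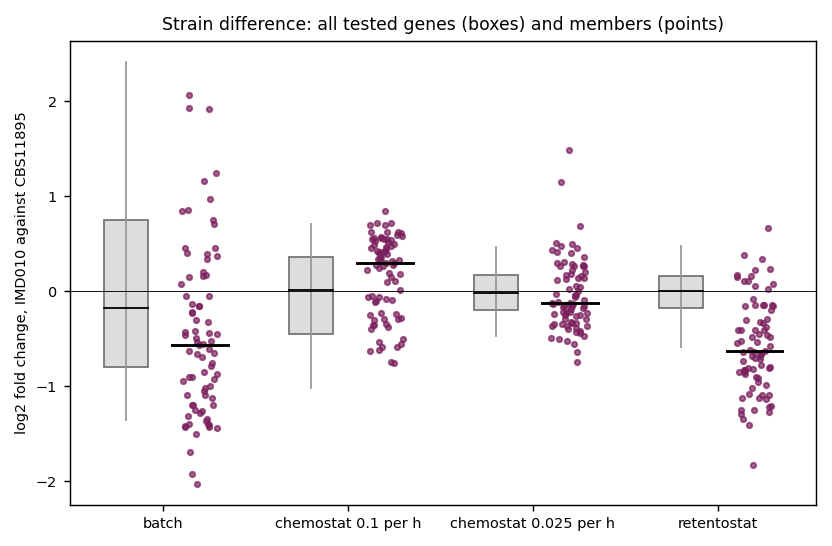
Log2 fold change of IMD010 against CBS11895 in each culture for all 5232 genes tested (boxes, quartiles with the median; whiskers, 5th to 95th percentile) and for the 79 members (points, with a bar at their median). The members' median lies at -0.56 in batch, 0.29 in chemostat 0.1, -0.13 in chemostat 0.025 and -0.63 in retentostat.

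In batch, 30 members were called (38.0%), a share near the 36.4% of all genes tested. By direction, 25 were lower in IMD010 (31.6%, beside 16.3% of genes) and 5 higher (6.33%, beside 20.1%). DSE1 was lower in IMD010 by -1.02 ± 0.11 (limma, adjusted p = 5.3e-05), ASH1 by -1.40 ± 0.32 (adjusted p = 0.0025), the myo-inositol transporter by -1.51 ± 0.29 (adjusted p = 0.00093) and HPODL_04836 by -2.03 ± 0.47 (adjusted p = 0.0029). Among the 5 that were higher were HPODL_02651 (2.06 ± 0.26, adjusted p = 8.4e-05), H2B (1.92 ± 0.30, adjusted p = 0.00028), H3 (1.91 ± 0.29, adjusted p = 0.00025) and H2A (by 2.37-fold, adjusted p = 0.0021). The histone genes are short, and genes of their length were low in the CBS11895 batch cultures as a class. With a trend on gene length taken out of each sample, 2 members were higher and 22 lower, beside 871 and 802 of all genes tested. The difference of H2B then came to 0.60 and was no longer called. Without a scaling factor 13 members were lower and 10 higher, and the split over all genes tested went from 1053 higher and 852 lower to 1356 and 301.

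Between batch and chemostat 0.1, 39 members were called in CBS11895 and 10 in IMD010, where 44.5% and 24.1% of genes tested were. Of them, 33 were higher in batch in CBS11895 (41.8%, beside 19.3% of genes tested) and 6 lower (7.59%, beside 25.3%). In IMD010 8 were higher (10.1%, beside 11.7%) and 2 lower (2.53%, beside 12.4%), and the median over the members was 0.89 in CBS11895 and 0.07 in IMD010. The IMD010 median was 0.36 without chemostat 0.1 culture 1 and -0.14 without culture 2. HPODL_03727 and HPODL_03708 rose most, by 4.64 ± 0.33 and 3.28 ± 0.24 in CBS11895 (limma, adjusted p = 7.0e-07 and 8.0e-07) and by 2.49 ± 0.33 and 2.23 ± 0.24 in IMD010 (adjusted p = 0.00011 and 2.3e-05). HPODL_04627 was lower in batch by -2.85 ± 0.28 and -4.15 ± 0.28 (adjusted p = 6.0e-06 and 5.2e-07). Over all genes tested the IMD010 median was 0.05, with 0.01 without chemostat 0.1 culture 1 and 0.003 without culture 2. Without culture 2, more members and more of all genes tested were called in IMD010. Without a scaling factor 25 members were higher and 8 lower in CBS11895, and the split over all genes tested went from 1008 higher and 1322 lower to 547 and 1733. The strain by batch interaction was called for 42 members (53.2%), beside 55.5% of all genes. Of them, 35 were more negative in IMD010 (44.3%, beside 28.6%) and 7 more positive (8.86%, beside 26.9%). Without IMD010 chemostat 0.1 culture 1 the median over the members was -0.55, beside -0.17 over all genes tested, and fewer of both were called. Without a scaling factor 12 members were more positive and 25 more negative, the median over the members went from -0.84 to -0.45, and the split over all genes tested went from 1407 more positive and 1495 more negative to 1721 and 854.

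With no threshold on the fold, an adjusted limma p under 0.05 was found for 47 members in CBS11895 (30% of genes tested) and 57 in IMD010 (50.7%) between the chemostat rates. Between batch and chemostat 0.1 it was found for 60 members (73.9% of genes) and 28 (52.2%). For the strain difference it was found for 15 members in retentostat (3.78%), 2 in chemostat 0.025 (1.8%), none in chemostat 0.1 (3.29%) and 53 in batch (73.1%), and for 55 members in the batch interaction (75.8%).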

How the data were processed

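Messenger RNA of 16 cultures was sequenced from strand-specific, poly(A)-selected libraries. According to the methods and the submitters' processing notes, the authors aligned reads with STAR 2.5.3a in 2 passes, removed reads that fitted more than 1 place, counted with HTSeq and deposited FPKM values per locus tag. The deposited FPKM values of a gene are whole numbers of reads times a constant: reads were recovered for 5400 of 5400 genes with a value (tolerance of 0.01 reads), 16522183 to 20898682 per sample (median 18514392.5). The divisor followed annotated length only weakly (Spearman -0.38) and length sorted as text closely (0.99), so levels were compared between genes only per kilobase from recovered reads. Within a gene the divisor cancels.

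FPKM were scaled by the median of ratios over genes above 0 in all samples, and genes with a group mean of at least 10 were kept (5232). The fit was limma 3.58.1 in R 4.3.3, with a trend on the mean, on log2(scaled FPKM + 1), with 16 samples, 8 groups and 8 residual degrees of freedom, and Benjamini-Hochberg adjustment over all genes tested. A call needed an adjusted p under 0.05 and a log2 change of at least 1. Fold changes on this scale understate changes of low genes. Retentostat against other cultures was used by the rule and got no test. Named genes were the 20 largest margins, the extremes of each contrast, the nearest to the threshold, and up to 4 members of each of 15 lists built from words in product names, and other named members were chosen after their values were seen. The members and lists were chosen with earlier results of these data known. Product names came from the supplementary tables of the study (names only) and coordinates from RefSeq's annotation of the DL-1 assembly Hansenula_2, which the authors aligned to. The fit was tested on simulated data. Alternatives were other scalings, pseudocounts, filters, thresholds, a length trend, a replicate block and leaving out each sample.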

Additional observations from a re-analysis of the deposited data

Results flagged for a closer look

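The difference between batch and chemostat 0.1 differed between the strains for 4 members singled out by the size of the interaction (limma, Benjamini-Hochberg adjustment over all genes tested, n = 2 cultures per group). On the log2 scale it was more positive in IMD010 for histone H3 HPODL_01324, by 2.66 ± 0.41 (SE, adjusted p = 0.00049), and for histone H2B HPODL_00353, by 2.45 ± 0.42 (adjusted p = 0.00073). Both genes have under 600 bp, and genes up to that length were low as a class in the CBS11895 batch cultures. With a trend on gene length taken out of each sample, the interaction was 1.11 for HPODL_01324 (adjusted p = 0.0070) and 0.86 for HPODL_00353, which was then no longer called. It was more negative in IMD010 for HPODL_04836, by -2.61 ± 0.67 (adjusted p = 0.0048), and for HPODL_03225, by -2.31 ± 0.63 (adjusted p = 0.0063). In both of these, IMD010 chemostat 0.1 culture 1 lay far above culture 2, at 1686 against 379.9 scaled FPKM for HPODL_04836 and 6549.6 against 1657 for HPODL_03225. Of all genes tested, 55.5% were called in this interaction.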

How the results depend on the processing

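The number of members was 62 to 103 under the alternatives to the rule, and 52 when every single retentostat sample had to lie 1 below every other sample of its strain. Alternatives chosen after seeing the data gave 95 members without the CBS11895 batch cultures, 103 without all batch cultures, 80 without the IMD010 chemostat 0.1 cultures and 71 with levels per annotated length. Leaving out 1 sample gave 74 to 84 members. In the same fits, members called ranged from 1 to 16 for the strain difference in retentostat, 0 to 2 in chemostat 0.025, 0 to 24 in chemostat 0.1 and 25 to 35 in batch, from 23 to 29 and 27 to 48 for the chemostat rates in CBS11895 and IMD010, from 37 to 44 and 7 to 21 for batch against chemostat 0.1, and from 0 to 23 and 26 to 54 for the rate and batch interactions. A group left with 1 sample is assumed to vary like the others, and the calls over all genes tested changed in these fits too.

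Without a scaling factor, 17 members were called for the strain difference in retentostat and 2 in chemostat 0.025, and the median over all genes tested moved from -0.17 to 0.13 for the strain difference in batch. With the samples of each contrast alone, the strain difference in retentostat gave 16 calls (all genes tested: 46 higher, 70 lower). That in chemostat 0.025 gave 2 (32 and 18). The IMD010 chemostat rates gave 0 (0 and 0) and IMD010 batch 5 (44 and 212). Levels per annotated length gave 5 calls for the strain difference in retentostat. With no fold threshold, the strain differences in retentostat, chemostat 0.025 and batch gave 15, 2 and 53 calls, CBS11895 chemostat rates 47, and batch against chemostat 0.1 60 in CBS11895 and 28 in IMD010. At a log2 change over 2 and an adjusted p under 0.001, these came to 0, 0 and 1, then 5 and 7 for the chemostat rates, 9 and 4 for batch, and 4 for the batch interaction. The cause of these shifts was not tested, except that the last 2 settings change the threshold itself.

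Replicate numbers did not pair the samples: of 28 pairs of groups, 6 had same-numbered deviations correlated above 0.1 (r from -0.32 to 0.41). With a replicate block, 10 members were called for the strain difference in retentostat and 41 for the batch interaction, and the other 8 counts were as without it. No called change of a named member turned its sign, but the median over the members did in 3 comparisons: the strain difference in chemostat 0.1 (0.29, and -0.05 without IMD010 chemostat 0.1 culture 1), IMD010 batch against chemostat 0.1 (0.07, and -0.14 without culture 2 of that group) and the rate interaction (-0.14, but 0.03 without scaling and 0.04 without culture 1). Of the changes of single members under the alternatives, 676 stayed on their side of the threshold and 49 lost their call. The margin of HPODL_00623 was 0.81 with a pseudocount of 10.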
